A study of Homo sapiens with 10 samples.

Results

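The transcripts described here encode the constitutive subunits of the human proteasome and its activators PA28 gamma and PA200. Members were taken as the rows of the deposited count table whose Ensembl ID belongs to a list of 33 genes. Of these, 32 were found among the 57736 genes of the table, and all 32 were abundant enough to be tested. They comprise 7 subunits of the 20S alpha ring, 6 of the 20S beta ring, 6 ATPases and 11 non-ATPase subunits of the 19S regulatory particle, and the activators PSME3 and PSME4. The beta subunit PSMB3 was not analysed here.

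RNA was sequenced from 3 human lung cancer cell lines that each carry a different p53 missense mutation. In each line an siRNA against p53 was set against a control siRNA. NCI-H2087 (V157F) had 2 p53 siRNA and 2 control siRNA libraries, as had NCI-H441 (R158L), and NCI-H2110 (R158P) had 1 of each, numbered replicate 2. Titles of the samples call the treatment a knockout; the extraction protocol and the experiment tag give siRNA, the term used here. Each mutation occurs in 1 line, so the mutation and the line cannot be told apart. No label tells whether replicates came from separate cultures, so p-values cover no more than the spread between libraries, which may be technical.

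The proteasome degrades proteins tagged with ubiquitin. Its 20S core is a barrel of outer alpha rings, which gate entry, and inner beta rings, of which PSMB5, PSMB6 and PSMB7 carry the active sites. The 19S particle recognises ubiquitin, removes the chain and unfolds the substrate with its ATPase ring. When proteasome activity is limiting, the transcription factor NRF1 (gene NFE2L1) raises the subunit genes together through antioxidant response elements. Missense mutant p53 has been reported to raise proteasome genes with the related factor NRF2 in breast cancer cells.

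Library totals ran from 18336672 to 25810934 counts, and the 32 members together took 0.384% to 0.561% of a library. The epithelial markers EPCAM, CDH1, KRT8, KRT18 and KRT19 summed to 2367 to 8914 CPM in the 10 libraries, where CPM is a count scaled to the library size, itself adjusted by TMM. The markers PTPRC, CD3E, COL1A2, DCN, PDGFRB and VWF stayed at or below 0.309 CPM in every library. CD14 reached 7.45 CPM, in NCI-H2110, CDH5 reached 1.36 CPM over all libraries, and COL1A1 ran from 12.1 to 48.7 CPM.

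In NCI-H2087, p53 siRNA was accompanied by higher levels of 4 members and lower levels of 0 of the 32. The 4 were PSMD2, PSMD14, PSMA1 and PSMB2, called with edgeR's quasi-likelihood test at a Benjamini-Hochberg adjusted p below 0.05. This fit did not pair libraries by replicate number, and a fit with that number as a block is given below. Of all 17978 genes tested, 8.68% were called in this comparison, 4.98% as higher and 3.69% as lower. Most of the other members had changes of the same sign that did not pass: 30 of 32 log2 changes were positive, with a median of 0.34, against a median of −0.03 over all genes tested. At an unadjusted p below 0.05 the number was 11, beside 25.3% of all genes tested. In culture-wide libraries, a different share of cells with a transcript and a different amount per cell cannot be told apart.

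PSMD2 encodes a scaffold of the 19S base on which ubiquitin shuttling proteins dock. It had 453 and 453 CPM in the p53 siRNA libraries of NCI-H2087, against 225 and 196 CPM in the control libraries. The groups were far apart, and the log2 change was 1.11 ± 0.18 (SE, n = 2 per arm, edgeR adjusted p = 0.00648). PSMD14 encodes the deubiquitinase that cuts the ubiquitin chain off the substrate at the entrance of the core. Its levels were 99.3 and 84.5 CPM with p53 siRNA and 53.8 and 38.5 CPM with control siRNA. Both p53 siRNA libraries again lay above both controls, and the log2 change was 0.99 ± 0.20 (edgeR adjusted p = 0.0157).

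PSMA1, an alpha ring subunit, had 574 and 515 CPM with p53 siRNA, against 375 and 310.0 CPM with control siRNA (log2 change 0.67 ± 0.16, edgeR adjusted p = 0.0316). Counts of PSMA1 may include reads of a readthrough gene that overlaps it in GENCODE 29. PSMB2, a beta ring subunit without an active site, had 428 and 316 CPM with p53 siRNA, against 230.3 and 183 CPM with control siRNA (0.85 ± 0.22, edgeR adjusted p = 0.042). In neither gene did the arms overlap.

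The calls rested on all 4 libraries. Each library was left out in turn, which left 1 library in an arm. Fewer members were then called, and the share of all genes tested that were called also fell in each fit. The members' median log2 change ran from 0.23 to 0.48 in these fits. PSMD2 kept its call in 3 of 4 of these fits, losing it without control replicate 2 (edgeR adjusted p = 0.0953). PSMD14 kept it in 2, PSMB2 in 1 and PSMA1 in 0, while the log2 change of PSMD2 stayed between 1.02 and 1.22.

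**Figure D1:**
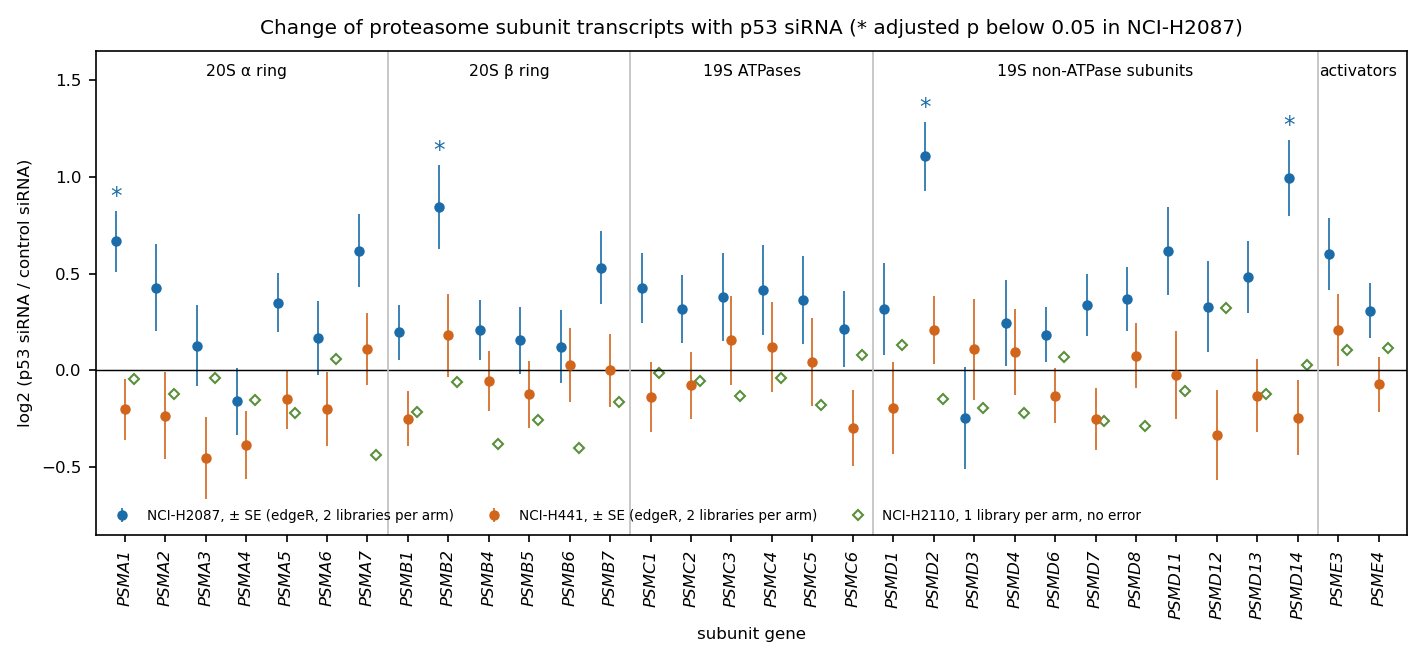
Log2 change of each of the 32 subunit transcripts with p53 siRNA over control siRNA (y axis), by subunit gene and subcomplex (x axis), with SE for NCI-H2087 and NCI-H441; NCI-H2110 has 1 library per arm and no error. In NCI-H2087, 30 of 32 points lie above 0 and 4 carry an asterisk (adjusted p below 0.05), whereas 11 points of NCI-H441 and 8 of NCI-H2110 lie above 0.

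Library by library, 23 of the 32 members had both p53 siRNA libraries of NCI-H2087 above both controls, and 0 had both below. Over all genes tested, these shares were 25.4% above and 30.4% below. The summed level of the 11 non-ATPase subunits was 1738 and 1531 CPM with p53 siRNA, against 1192 and 1083 CPM with control siRNA. The 7 alpha subunits summed to 1854 and 1629 CPM with p53 siRNA and to 1461 and 1212 CPM with control siRNA. For the 6 ATPases the sums were 729 and 586 CPM with p53 siRNA, against 560.3 and 463 CPM with control siRNA. The 6 beta subunits summed to 1242 and 1082 CPM with p53 siRNA and to 933 and 817 CPM with control siRNA. In each of these sums both p53 siRNA libraries were above both controls.

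The changes in NCI-H2087 ran from −0.16 to 0.67 in the alpha ring, 0.12 to 0.85 in the beta ring and −0.25 to 1.11 in the non-ATPase subunits. Whether the spread within a subcomplex exceeded that between libraries was not tested. Median log2 changes were 0.35 for the alpha ring, 0.20 for the beta ring, 0.37 for the ATPases and 0.34 for the non-ATPase subunits. The 6 ATPases lay closest together, between 0.21 and 0.42, and 0 of 6 passed. PSMD3, a scaffold of the 19S lid, had the lowest change. Its levels were 107 and 89.0 CPM with p53 siRNA and 106 and 126 CPM with control siRNA, so the arms overlapped (−0.25 ± 0.26, edgeR adjusted p = 0.606). PSMA4, an alpha subunit, was the other member with a negative value, at 37.0 and 31.3 CPM with p53 siRNA and 39.9 and 36.4 CPM with control siRNA, again with overlap (−0.16 ± 0.17, edgeR adjusted p = 0.616).

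The 3 active-site subunits did not pass. PSMB5, the chymotrypsin-like subunit and the target of bortezomib, had 121 and 103 CPM with p53 siRNA, against 109 and 92.5 CPM with control siRNA in NCI-H2087 (0.15 ± 0.17, edgeR adjusted p = 0.622). PSMB6, the caspase-like subunit, had 85.5 and 76.5 CPM against 84.6 and 64.2 CPM (0.12 ± 0.19, edgeR adjusted p = 0.742). In both genes the arms overlapped. PSMB7, the trypsin-like subunit, had 141 and 142 CPM with p53 siRNA and 103 and 92.4 CPM with control siRNA, without overlap (0.53 ± 0.19, edgeR adjusted p = 0.114).

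Levels in NCI-H2087 also went with the replicate number. Replicate 2 lay above replicate 1 for 3 of 32 members with p53 siRNA and for 2 of 32 with control siRNA, with median log2 differences of −0.25 and −0.22. With the replicate number as a block, 11 members were called higher and 0 lower, beside 12.8% higher and 12.6% lower of all genes tested. They were the 4 above and PSMA7, PSMB7, PSMC1, PSMC4, PSMD11, PSMD13 and PSME3. PSMB7 then had an edgeR adjusted p of 0.00868 and PSMA7 of 0.00314.

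Other measures also differed between the arms of NCI-H2087. Pseudogenes of mitochondrial genes took 2.48% and 2.25% of counts with p53 siRNA, against 4.85% and 5.51% with control siRNA. The 5 epithelial markers summed to 8822 to 8914 CPM with p53 siRNA and to 3694 to 4035 CPM with control siRNA, while the summed fibroblast markers ran from 12.3 to 15.9 and from 14.1 to 16.5 CPM. Their part in the subunit changes was not tested. When libraries were scaled by their totals, without TMM, the median over all genes was −0.21 and the median over members 0.17, so that the distance between the medians was 0.37 with totals and 0.38 with TMM. With totals alone 2 members were called, PSMD2 and PSMD14, and 33.2% of all called genes were higher, against 57.4% with TMM.

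**Figure D2:**
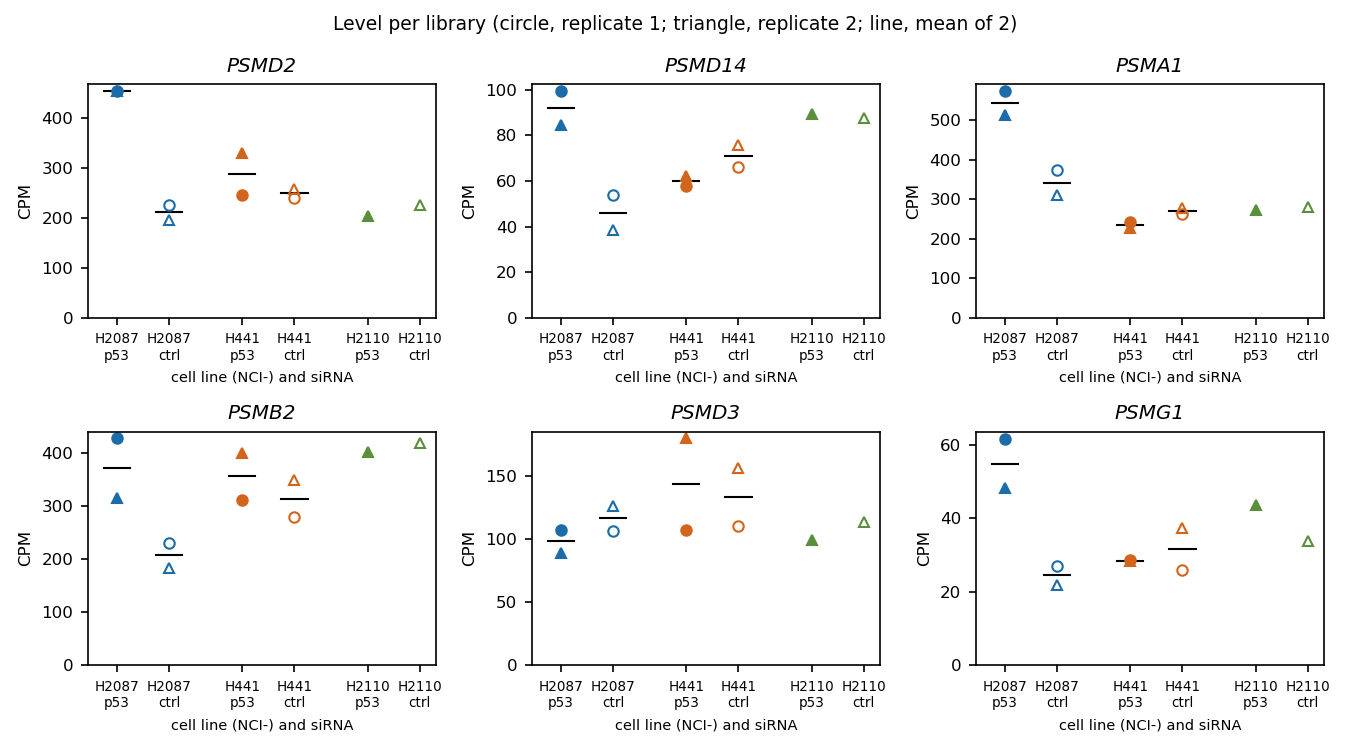
Level of PSMD2, PSMD14, PSMA1, PSMB2, PSMD3 and the assembly chaperone PSMG1 in CPM on TMM library sizes (y axis, from 0), by cell line and siRNA (x axis); each point is 1 library and lines are means of 2. In PSMD2, PSMD14, PSMA1, PSMB2 and PSMG1 both p53 siRNA libraries of NCI-H2087 lie above both controls, and in PSMD3 the arms overlap.

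Promoter letters were read for 27 of the 32 members from RefSeq (GRCh38.p14), as windows from 250 bases before to 50 after the gene start. The core of the antioxidant response element was searched as TGACNNNGC on both strands, and a gene was counted if any of its windows held it. It was found for 7 of 27 members (25.9%), against 16.0% of other genes. The CCAAT box, the NF-Y binding sequence searched as CCAAT on both strands, was found for 15 of 27 members (55.6%), against 39.7% of other genes. None of the 7 members with the first motif was called in NCI-H2087, beside 8.68% of all genes tested. PSMC4, an ATPase among them, was called with the replicate block (edgeR adjusted p = 0.032), beside 25.4% of all genes. Whether the motif went with the calls was not tested. The median log2 change of the 7 was 0.32, against 0.37 for the 20 without the first motif. For the CCAAT box the medians were 0.35 with and 0.37 without. PSMD2 and PSMA1 had neither motif in this window. Shown are the 2 members with a negative change, both with the first motif, and the 2 called members with a CCAAT box. PSMA4 and PSMD3, the members with a negative change, also had a CCAAT box, and PSMD3 another match of the first motif. Those matches are not shown, so the windows below do not divide the motifs by direction of change. Capitals mark a single match in each window, on the strand given. PSMD14 also had a CCAAT box on the other strand, which overlaps the marked one and is not capitalised in full.
PSMA4 (chr15:78540650-78540679, plus strand): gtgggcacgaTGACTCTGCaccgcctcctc
PSMD3 (chr17:39980760-39980789, plus strand): tcccctttgtTGACTCGGCcatcggcctgc
PSMD14 (chr2:161308365-161308394, plus strand): tctccgtcgtctCCAATtggccgtcgggga
PSMB2 (chr1:35641511-35641540, minus strand): gcaggcgtcgcgCCAATcttcgctctgagg
A match describes the letters of the window and not a bound site.

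In NCI-H441, 0 of the 32 members were called with edgeR, with 0 at an unadjusted p below 0.05, and DESeq2 and limma-voom also called 0. The share of all genes called here was 0.00556% with edgeR and with limma-voom. DESeq2 called 0.177% of the genes it gave an adjusted p. The share at an unadjusted p below 0.05 with edgeR was 4.43%. The members' median log2 change was −0.10, with 11 positive and 21 negative values, and the median of all genes was 0.01. Both p53 siRNA libraries lay below both controls for 12 of 32 members and above them for 0, beside 17% in each direction over all genes tested. Replicate 2 was the higher one in this line, for 21 of 32 members with p53 siRNA and for 30 of 32 with control siRNA.

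PSMA3, an alpha subunit, had the lowest value in NCI-H441, with 132 and 109 CPM with p53 siRNA and 149 and 181 CPM with control siRNA (−0.45 ± 0.21, edgeR adjusted p = 0.933). PSMA4 had 24.8 and 21.8 CPM, against 30.9 and 30.03 CPM (−0.39 ± 0.18, edgeR adjusted p = 0.933), and PSMB1, a beta subunit, 124 and 116 CPM, against 139 and 147 CPM (−0.25 ± 0.14, edgeR adjusted p = 0.933). In these 3 genes the arms did not overlap. The highest value was that of PSME3, which encodes the nuclear activator PA28 gamma, with 249 and 315 CPM against 221 and 267 CPM (0.21 ± 0.19, edgeR adjusted p = 0.933). The arms of PSME3 overlapped, as did those of PSMD2, with 245 and 329 CPM against 239 and 258 CPM. PSMD14 stood at 57.7 and 62.0 CPM with p53 siRNA, against 66.0 and 75.7 CPM with control siRNA, a lower level in both libraries that did not pass (−0.24 ± 0.19, edgeR adjusted p = 0.933).

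In NCI-H2110, where 1 library per arm allows no test, 8 members had a higher and 24 a lower level with p53 siRNA. The median log2 ratio was −0.12, and 0 of 32 members were past 1.5-fold in either direction. Of the 12385 genes with at least 50 counts in either library, 4.84% were past 1.5-fold higher and 4.08% lower. The lowest ratio was that of PSMA7, an alpha subunit, with 83.8 CPM with p53 siRNA against 114 CPM with control siRNA (−0.44), followed by PSMB6 (−0.40), PSMB4 (−0.38) and PSMD8 (−0.29). The highest was that of the lid scaffold PSMD12, with 88.1 CPM against 70.4 CPM (0.32), followed by PSMD1 (0.13), PSME4 (0.12) and PSME3 (0.11). The 4 members called in NCI-H2087 lay between −0.15 (PSMD2) and 0.03 (PSMD14).

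An additive model of line and siRNA called 0 members across the lines, beside 0.395% of all genes. At an unadjusted p below 0.05 there were 3 members, beside 14.2% of all genes. It uses the libraries of the comparisons above. DESeq2 called 0 too, beside 4.20% of the genes it gave an adjusted p, as did limma-voom, beside 0.523% of all genes. PSMD2 had the highest common change (0.50 ± 0.19, edgeR adjusted p = 0.274), followed by PSMB2 (0.40 ± 0.17, 0.33) and PSME3 (0.34 ± 0.13, 0.284), and PSMA4 the lowest (−0.25 ± 0.12, edgeR adjusted p = 0.359).

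The change in NCI-H2087 minus that in NCI-H441 was tested directly, since a call in 1 line does not show a difference between lines. None of the 32 members passed with edgeR, beside 0.412% of all genes, and 6 had an unadjusted p below 0.05, beside 13.2% of all genes. DESeq2 called 3, beside 3.17% of the genes it gave an adjusted p, and limma-voom 0, beside 0.172% of all genes. The difference was positive for 31 of 32 members, with a median of 0.47 log2, against −0.03 over all genes tested. PSMD14 had the largest difference (1.24 ± 0.28, edgeR adjusted p = 0.101), ahead of PSMD2 (0.90 ± 0.25, 0.178) and PSMA1 (0.87 ± 0.22, 0.146), and PSMD3 the lowest (−0.35 ± 0.37, 0.735). With the replicate block 5 members passed, PSMD14, PSMD2, PSMA1, PSMB2 and PSMD11, beside 8.92% of all genes, and the adjusted p of PSMD14 was 0.00127.

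Among genes that act with the proteasome, 1 of 9 assembly chaperones, 1 of 11 proteasome-associated proteins and 1 of 9 tested genes of the NRF1 pathway were called in NCI-H2087, all higher, beside the 8.68% of all genes called in that comparison. The chaperone was PSMG1, with 61.6 and 48.1 CPM with p53 siRNA against 27.0 and 21.9 CPM with control siRNA (1.17 ± 0.23, edgeR adjusted p = 0.0149). PSMG1 forms a pair with PSMG2 that guides alpha ring assembly, and PSMG2 did not pass (0.18 ± 0.18). The associated protein was the ubiquitin ligase UBE3C (0.77 ± 0.15, edgeR adjusted p = 0.0144). Both calls were kept in 1 of the 4 fits that leave out a library. With the replicate block 2 chaperones were called higher, PSMG1 and POMP (0.48 ± 0.15, edgeR adjusted p = 0.0273), and 3 associated proteins, UBE3C, the ubiquitin receptor ADRM1 (0.83 ± 0.16, edgeR adjusted p = 0.00153) and ECPAS (0.46 ± 0.14, edgeR adjusted p = 0.0269), beside 25.4% of all genes called in either direction. In the difference between the lines, PSMG1, POMP and UBE3C passed with the block and none of them without it.

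The gene called in the NRF1 pathway was DDI2, the protease that cuts and activates NRF1. DDI2 had 35.2 and 41.3 CPM with p53 siRNA, against 23.5 and 22.4 CPM with control siRNA (0.74 ± 0.18, edgeR adjusted p = 0.0319), and it too kept its call in 1 of 4 fits. NFE2L1 itself had 60.2 and 70.8 CPM with p53 siRNA, against 88.2 and 90.9 CPM with control siRNA. This lower level did not pass (−0.45 ± 0.16, edgeR adjusted p = 0.121), and with the replicate block it did (adjusted p = 0.0241), as did FBXW7, a ubiquitin ligase subunit, at −0.56 ± 0.18 (edgeR adjusted p = 0.0283). The pathway then had 1 gene called higher and 2 lower. In NCI-H441, 0 genes of these 3 lists and of the immunoproteasome list were called. Among them were SEM1, a small lid subunit (−0.46 ± 0.15), the deubiquitinase UCHL5 (−0.51 ± 0.26) and the maturation protein POMP (−0.34 ± 0.19), each with an edgeR adjusted p of 0.933.

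The interferon-induced catalytic subunits PSMB8, PSMB9 and PSMB10 replace PSMB5, PSMB6 and PSMB7 in the immunoproteasome. None of the 3, nor the PA28 subunits PSME1 and PSME2, was called with p53 siRNA in NCI-H2087 or NCI-H441. PSMB8 had 36.9 and 37.2 CPM with p53 siRNA and 27.6 and 29.02 CPM with control siRNA in NCI-H2087 (0.39 ± 0.18, edgeR adjusted p = 0.208). PSMB10 had 9.19 and 8.49 CPM, against 10.8 and 10.5 CPM (−0.27 ± 0.24, edgeR adjusted p = 0.52). Counts were lowest in NCI-H2110, at 13 with p53 siRNA against 17 with control siRNA for PSMB8, 4 against 5 for PSMB9 and 18 against 42 for PSMB10. In the control libraries PSMB9 was higher in NCI-H2087 than in NCI-H441 (1.08 ± 0.35, edgeR adjusted p = 0.0332), a call kept in 1 of the 4 fits that leave out a library, the one without NCI-H441 replicate 2.

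As a share of its constitutive counterpart's counts, PSMB8 stood at 30.5% and 35.9% with p53 siRNA and at 25.3% and 31.4% with control siRNA in NCI-H2087. In NCI-H441 it stood at 54.0% and 54.6% with p53 siRNA and at 42.3% and 42.7% with control siRNA. In NCI-H2110 it was 0.680% with p53 siRNA and 0.675% with control siRNA. The arms overlapped in NCI-H2087 and not in NCI-H441. PSMB10 stood at 6.52% and 5.99% of PSMB7 with p53 siRNA in NCI-H2087, against 10.5% and 11.4% with control siRNA, both p53 siRNA libraries being lower. In NCI-H441 its arms overlapped, at 12.4% and 9.81% with p53 siRNA and 10.7% and 6.39% with control siRNA. PSMB9 stood at 12.8% and 15.3% of PSMB6 with p53 siRNA and at 11.6% and 18.2% with control siRNA in NCI-H2087, with overlap. No test was made of these ratios, which are not corrected for transcript length.

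**Figure D3:**
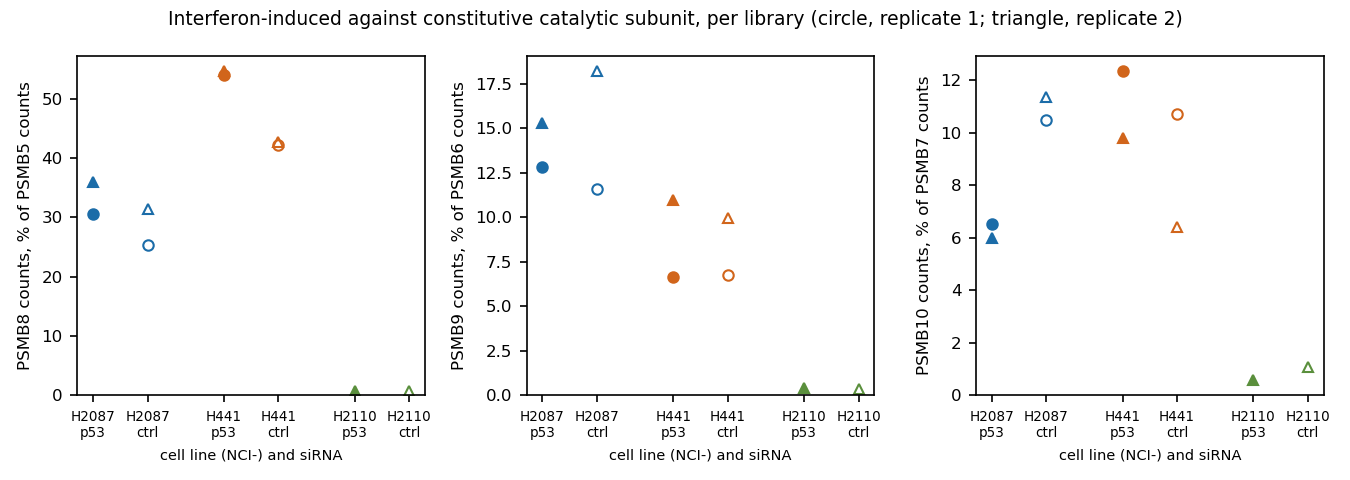
Counts of PSMB8, PSMB9 and PSMB10 as a percent of the counts of PSMB5, PSMB6 and PSMB7 (y axes, from 0), by cell line and siRNA (x axes), 1 point per library. Both NCI-H2110 libraries lie at 0.675% and 0.680% for PSMB8, against 25.3% to 54.6% in the other lines.

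Between the lines, 13 of the 32 members differed in the control siRNA libraries of NCI-H2087 and NCI-H441 (edgeR, adjusted p below 0.05), 4 higher and 9 lower in NCI-H2087. Over all genes tested 42.1% differed, 22% higher and 20.1% lower, so the members' share was close to that of all genes. PSMA7 had 57.1 and 50.7 CPM in NCI-H2087, against 193 and 237 CPM in NCI-H441 (−1.996 ± 0.19, edgeR adjusted p = 4.28e-05). PSMD11, a lid subunit, had 121 and 94.3 CPM in NCI-H2087, against 241 and 342 CPM in NCI-H441 (−1.44 ± 0.23, edgeR adjusted p = 0.000921). PSMA5 went the other way, with 338 ± 33.0 CPM in NCI-H2087, against 159.96 ± 4.19 CPM in NCI-H441 (SD, n = 2 each), and a log2 difference of 1.08 ± 0.15 (edgeR adjusted p = 0.00046). PSMA5 and PSMA7 sit in the same alpha ring.

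The other members higher in NCI-H2087 were PSMA6 (0.77 ± 0.19, edgeR adjusted p = 0.01), PSMD13 (0.71 ± 0.19, 0.0135) and PSMB5 (0.66 ± 0.17, 0.0123). Those lower in NCI-H2087 were PSME3 (−0.97 ± 0.19, 0.00264), PSMC2 (−0.86 ± 0.18, 0.00355), PSMD12, PSMA3, PSMD14, PSMD6 and PSMB2 (−0.60 ± 0.22, 0.0477). Each control library was also left out in turn, which left 1 library in a group. Fewer members and a smaller share of all genes tested were then called. The members' median log2 difference ran from −0.13 to 0.15 in these fits. PSMA7, PSMD11, PSME3, PSMC2 and PSMA5 kept their calls in all 4 of these fits.

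In its 1 control library, NCI-H2110 had 15 of 32 members above every other control library and 5 below every one, beside 32.6% above and 31.2% below over all genes tested. PSMD4, the ubiquitin receptor of the 19S particle, had 296 CPM, 2.47 times the mean of the other lines, and PSMB4, a beta subunit, had 432 CPM, 1.99 times that mean. Both genes lie close together on chromosome 1. PSMA5 and PSMB2, also on chromosome 1, stood at 0.877 and 1.61 times that mean. PSMA6 had 146 CPM, 0.496 times the mean of the others.

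Over the 32 members, these differences between lines went with those of neighbouring genes. Each member was set beside the median of up to 10 tested protein-coding genes on each side. For the control difference between NCI-H2087 and NCI-H441, the member's value and its neighbours' median had r = 0.84 and rho = 0.82 over 32 members. The same measure over 13988 other protein-coding genes gave r = 0.26 and rho = 0.33. PSMA7 (−1.996) had neighbours at a median of −1.35, PSMA5 (1.08) at 1.28 and PSMA6 (0.77) at 0.92. Among called members, PSMD14 (−0.62) and PSMB2 (−0.60) did not follow theirs, which stood at 0.017 and 0.11. Signs were also opposite for PSMA4 (0.32, neighbours at −0.32), PSMB1, PSMB7 and PSMD4, which were not called. For NCI-H2110 against the mean of the other lines r was 0.58 and rho 0.53, against 0.30 and 0.33 over the other genes. Neighbours stood at a median of 1.04 for PSMD4 and 1.16 for PSMB4, which lie close together and share neighbours. PSMD14 (0.63, neighbours at −0.99) and PSMB2 (0.73, neighbours at −0.41) went the other way here. So did PSMD1 (0.80, neighbours at −0.17), PSMB5 (0.31, neighbours at −0.64), PSMD7, PSMB1, PSMB6, PSMD3 and PSMA7. Both differences use the control libraries of NCI-H2087 and NCI-H441.

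For the change with p53 siRNA in NCI-H2087, r was 0.02 and rho 0.13 over the 32 members, against 0.08 and 0.076 over the other genes. PSMD2 (1.11) had neighbours at a median of −0.07 and PSMD14 (0.99) at −0.39. These correlations are across genes that share libraries, members close to each other share neighbours, and low genes add noise to the value over all genes. Gene copy number was not measured here.

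**Figure D4:**
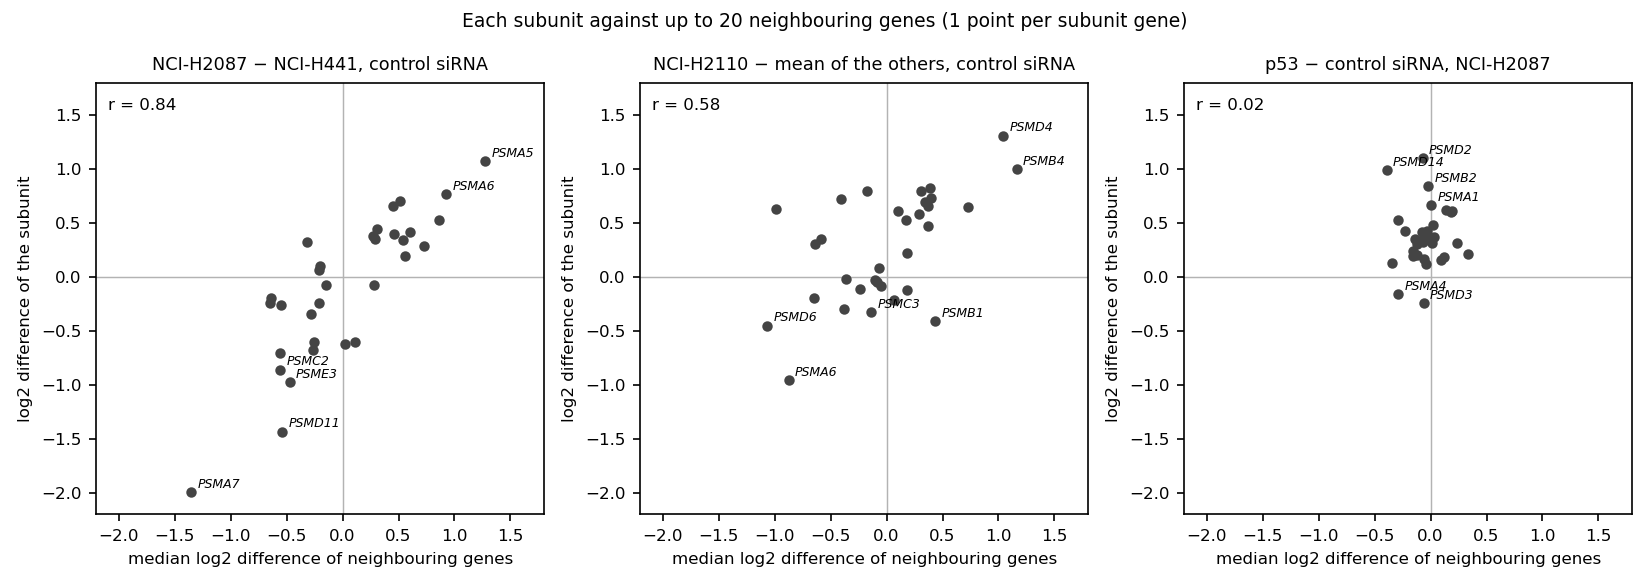
Log2 difference of each subunit (y axes) against the median log2 difference of its neighbouring genes (x axes), 1 point per subunit gene, for 2 differences between lines under control siRNA and for p53 siRNA over control siRNA in NCI-H2087. Points run along the diagonal in the first panel (r = 0.84) and not in the third (r = 0.02).

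Of the 33 pseudogenes named after members, 1 had counts enough to be tested. This was PSMC1P1, a processed copy of the ATPase gene PSMC1, and the counting may split reads between the near-identical copies. In NCI-H441 it had 4.59 and 3.35 CPM with p53 siRNA, against 9.49 and 12.02 CPM with control siRNA, without overlap. The change did not pass (−1.44 ± 0.24, edgeR adjusted p = 0.325) and did with the replicate block (adjusted p = 0.00822). NCI-H2087 had 17.1 and 18.0 CPM of PSMC1P1 with p53 siRNA and 16.0 and 14.4 CPM with control siRNA (0.20 ± 0.23). In NCI-H2110 the level was 6.80 CPM with p53 siRNA, against 2.20 CPM with control siRNA, in the other direction than in NCI-H441 and with no test. PSMC1 had 55.0 and 54.9 CPM with p53 siRNA and 58.9 and 62.0 CPM with control siRNA in NCI-H441 (−0.14 ± 0.18, edgeR adjusted p = 0.963). Adding the pseudogene's counts to PSMC1 left the number of called members at 4 in NCI-H2087 and 0 in NCI-H441.

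Of the 32 members, 16 overlap another gene in GENCODE 29, 13 of them a gene on the opposite strand. Whether counting used the strand is not given in the sources used here, so reads of such pairs may not be told apart. PSMD2, PSMB2, PSMA5 and PSMA7 overlap none.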

How the data were processed

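RNA of 10 libraries was described by raw counts per gene, whole numbers deposited by the authors with no normalization. Bowtie2, RSEM 1.2.12 and the hg19 build are named, without roles, per the submitters' processing notes, and whether the counts are rounded estimates is not stated. Per the labels' protocols, RNA came from an RNeasy Plus kit and libraries from a Lexogen mRNA kit. Symbols came from reference tables and GENCODE 29, and promoter letters from RefSeq GRCh38.p14.

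Genes were kept with filterByExpr (17978 genes, 99.96% of counts), scaled by TMM and tested, two-sided, with edgeR 4.0.16 in R 4.3.3 on all 10 libraries with 1 mean per line and siRNA (4 residual degrees of freedom), or with line and siRNA as additive terms (6). Benjamini-Hochberg adjustment ran over the 17978 genes. The common biological coefficient of variation was 19.8%. SE values derive from the F statistic. NCI-H2110 ratios used a prior count of 2. The procedure was also run on simulated counts with changes planted in NCI-H2087 only and no replicate effect. Such a run does not cover data whose replicates differ alike in both arms. DESeq2 1.42.0, limma-voom (limma 3.58.1), other scalings, no filter, pseudogenes added to parents, 1 line alone and left-out libraries were alternatives.

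Differences between replicates 1 and 2 correlated between the arms over 9332 genes (r = 0.534 in NCI-H2087, 0.595 in NCI-H441). The main fits and the statements on overlap of arms nevertheless left the replicate number out, so they are not paired. Blocked values are given where they change a call or move a count by over 1.5 times. Replicates were no copies of each other (chi-square per gene of 18.5 to 54.0).

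Named genes were the called members and those of highest and lowest change, those of smallest p where none passed, the called or smallest-p genes of related lists in NCI-H2087, the catalytic subunits and their interferon-induced counterparts, and PSMC1 with its pseudogene. Not every gene under this rule is printed. NFE2L1, PSMG2 and members of the NCI-H2110 and neighbour paragraphs were added after their values were seen. The members and lists were chosen with earlier results of these data known. The transcript targeted by the siRNA and some genes of the related lists are not reported here.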

Additional observations from a re-analysis of the deposited data

How the results depend on the processing

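With 2 libraries per arm, the calls depended on single libraries and on the estimate of spread. In NCI-H2087 the count of called members was 4 as reported, beside 8.68% of all genes. It was 2 with library totals only, beside 10.7%, and 7 with no filter, beside 9.21%. DESeq2 called 6, beside 14.4% of the genes it gave an adjusted p. With the replicate block 11 were called, beside 25.4% of all genes. With a library left out, fewer members and a smaller share of all genes were called. Across the lines the count was 1 with no filter, beside 3.83% of all genes, against 0 as reported, beside 0.395%. For the difference between lines it was 3 with no filter, beside 2.76% of all genes, and 3 with DESeq2, beside 3.17%. With the replicate block it was 5, beside 8.92%, against 0 as reported, beside 0.412%. At baseline a left-out library gave 7 to 8, against 13. In each of these baseline fits with a library left out, the share of all genes called also fell, below the 42.1% of the reported fit. Blocking changed no other count of members by over 1.5 times. The members' median in NCI-H2087 was 0.17 with library totals only and 0.23 to 0.48 with a library left out. In NCI-H441 it was −0.15 and −0.20 to −0.029. For the difference between lines it was 0.48 with DESeq2 size factors, 0.34 with library totals only, 0.49 with no filter, 0.48 with DESeq2 and 0.36 to 0.59 with a library left out.

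Over all settings, 1502 values of named genes were recomputed. In 1375 the sign and side of the threshold were kept or, in NCI-H2110 without a test, the ratio stayed within a counting interval. The NCI-H2110 settings reused the same libraries and changed only scaling, prior count or pseudogene handling, so they say little about stability. Where few genes were called, as in NCI-H441, values also kept their side of the threshold easily. Of the 1502 values, a call was lost in 67 and gained in 26, and 34, from 15 values, changed sign. Of these, the changes in NCI-H2087 were −0.022 for PSMB5, −0.054 for PSMB6 and −0.099 for PSMB9 with library totals only, and −0.048 to 0.35 for PSMB6 and −0.032 to 0.22 for PSMB9 with a library left out. In NCI-H441 they were −0.018 for PSMB6 with library totals only, 0.0031 for PSMB7 with DESeq2 size factors, 0.0030 with DESeq2 and 0.00045 with no filter. Left-out libraries gave −0.14 to 0.18 for PSMB6, −0.25 to 0.21 for PSMB7 and −0.48 to 0.56 for PSMB9 in NCI-H441. Across the lines PSMB9 was at −0.019 with library totals only, and left-out libraries gave −0.10 to 0.011 for PSMB5, −0.096 to 0.022 for PSMB6, −0.13 to 0.24 for PSMB9 and −0.29 to 0.11 for PSMC1P1. For the difference between lines PSMB6 was at −0.035 with library totals only and PSMB9 at 0.012 with limma-voom, and left-out libraries gave −0.68 to 0.069 for PSMD3, −0.068 to 0.33 for PSMB6 and −0.49 to 0.56 for PSMB9. At baseline they gave −0.047 to 0.26 for PSMB7 and −0.0076 to 0.14 for PSMB8. The cause was not tested in any of these.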
